A study of Mus musculus with 6 samples.

Results

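The mRNAs of the cytosolic ribosomal proteins were examined in primary cardiomyocytes of newborn C57BL/6 mice cultured with α-ketoglutarate (αKG) or without it. The members are the protein-coding genes whose symbol is Rpl or Rps followed by a number, with an optional last letter a, x, y or l, plus *Rplp0*, *Rplp1*, *Rplp2* and *Rpsa*, without the *Rps6k* kinases. This rule uses symbols and no measured value. It found 78 of the 20066 genes listed, 47 of the large (60S) subunit and 31 of the small (40S) subunit. *Rps3a1*, *Fau* and *Rack1*, which also belong to the ribosome, do not match the symbols and are described beside the members. The cells came from pups of postnatal day 0 to 1, carried no engineered allele per the labels, and were kept for 96 h with the solvent dimethylsulfoxide (DMSO, 3 libraries) or with a cell-permeable form of αKG at 100 µM (3 libraries). αKG is a Krebs cycle intermediate and a co-substrate of many dioxygenases. The study's methods give another concentration for its αKG ester, so the dose is uncertain. The study asked whether αKG holds cardiomyocytes in an immature, dividing state. The labels do not say whether the 3 libraries of a group came from separate cultures, and the methods describe neonatal samples as single isolations from pooled hearts only in a passage on imaging, so p-values measure the spread between these libraries, which may be technical.

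Each ribosomal protein is present once in a ribosome, apart from the paired stalk proteins, and cells make the whole set in matched amounts. Growing cells need more ribosomes, and the supply of ribosomal proteins is controlled mostly at translation: the mRNAs begin with a C followed by a run of pyrimidines (the 5′ terminal oligopyrimidine motif, TOP), through which mTORC1 and the RNA-binding protein LARP1 set how many of them are translated. RNA abundance, the quantity measured here, does not show that control. Heart and skeletal muscle also express RPL3L, a paralogue that takes the place of RPL3 as muscle matures. The mRNAs are short and have many processed pseudogenes, so that short reads from them often match several places.

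The TOP motif was found at a part of the members' annotated start sites, more often than over all genes. RefSeq (GRCm38.p6) gave a start for 58 of the 78 members. At 13 of the 58 (22.4%) the annotated first base was a C followed by at least 4 pyrimidines, against 3.0% of all 27025 genes with a start. Whether the annotated starts are those used in these cells was not tested. The listed *Rps3* gene, on the minus strand, reaches 99483738, beyond its window below. A missing run at an annotated start thus does not show that the mRNA lacks one. Within the window from 20 bases before to 25 bases after the start, 48 members (82.8%) held such a run, against 53.3% of all genes. The windows below run from 15 bases before to 15 bases after the annotated start, read 5′ to 3′ on the gene's strand, with the longest run of a C and at least 4 pyrimidines in capitals. They are picked examples, 4 with a run across the start and 3 with a short run past it or none. Other windows differed: a further start of *Rps24* had no run, and the runs of *Rpl10a* and *Rps27l* lay before the start. Whether such a run goes with a gene's change under αKG was not tested.
Rps6 (chr4:86857353-86857382, minus strand): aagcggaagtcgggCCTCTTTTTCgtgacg
Rps27 (chr3:90213634-90213663, minus strand): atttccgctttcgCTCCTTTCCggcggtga
Rps24 (chr14:24490663-24490692, plus strand): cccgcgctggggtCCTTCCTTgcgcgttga
Rack1 (chr11:48800345-48800374, plus strand): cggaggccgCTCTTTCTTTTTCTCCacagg
Rps3 (chr7:99483695-99483724, minus strand): cttgcaagggtcgccgcgctgcgcggcgtc
Rpl3l (chr17:24727811-24727840, plus strand): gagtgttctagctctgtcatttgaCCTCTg
Rpl7l1 (chr17:46782642-46782671, minus strand): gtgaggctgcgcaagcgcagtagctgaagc

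In the 300 bases around the start, 250 before and 50 after, CCGGAA, the core of the sites of ETS factors, was found on either strand for 32 members (55.2%) and for 16.7% of all genes. CACGTG, the E-box bound by MYC among others, was found for 6 members (10.3%) and 8.1% of all genes. AAGATGGC, the core of the YY1 site, was found for 5 members (8.6%) and 3.2% of all genes. None of the 3 motifs contains another, and a match is a description of letters only.

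The deposited values are reads divided by a factor for each library and rounded, and the steps between low values gave the depth. It lay between 3725178 and 4428703 reads in genes per library. αKG replicate 3 correlated more closely with the DMSO libraries than with αKG replicates 1 and 2. Across all genes, limma on log2(value + 1) called 759 of 20066 genes at a Benjamini-Hochberg adjusted p under 0.05, 568 higher and 191 lower in αKG. Leaving out αKG replicate 1 or 2 left 0 genes called (3324 and 3244 at an unadjusted p under 0.05), and leaving out αKG replicate 3 gave 7466. All 14 cardiomyocyte markers were listed, with summed values of 80907 to 83450 in DMSO and 85484 to 117263 in αKG, much of it the titin gene *Ttn* with 51569 to 54216 and 55569 to 84136. The median log2 fold change of the 14 was 0.07, and none was called. The 12 endothelial markers summed to 2291 to 2413 in DMSO and 1581 to 1725 in αKG, and 8 of them were called lower. The 12 fibroblast markers summed to 8265, 8000 and 3744 in αKG replicates 1 to 3, against 3689 to 3843 in DMSO, with none called and 8 at an unadjusted p under 0.05. Of 12 macrophage markers, 4 were listed, with sums of 22 to 41, and of 8 erythroid markers only *Alas2* was listed, at 0 to 4; the haemoglobin genes and *Ptprc* were not listed.

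Ribosomal protein mRNAs stayed close to their control levels under αKG. None of the 78 members passed the adjusted threshold in either direction, where 3.78% of all genes passed. At an unadjusted p under 0.05 there was 1 member (1.28%), *Rps3*, against 28.1% of all genes. With limma-voom on estimated reads there were likewise 0 members called and 1 at an unadjusted p under 0.05. The unadjusted count depended on the fit. It was 3 with quantile normalization and 7 with trends of GC content and mRNA length removed, beside 5421 and 5589 of all genes. Without αKG replicate 3 it was 9, beside 9656 of all genes. The median log2 fold change of the members was -0.05, with 55 below and 23 above 0, a sign that turned to 0.08 when trends with GC content and mRNA length were removed. It stood beside a median of 0.04 over all genes and -0.03 over the protein-coding genes. The large subunit proteins had a median of -0.06 and the small subunit proteins -0.03. In a culture of several cell types, fewer cells of a type and less RNA per cell cannot be told apart, and the part of the shift in endothelial and fibroblast markers in these values was not tested.

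The spread of the members was narrow. Their log2 fold changes ranged from -0.44 for *Rpl24*, a bridge protein of the large subunit with a mean value of 2.67, to 0.25 for *Rps10*, with a mean of 13.3. Over the 77 members with a mean of at least 10, the SD of the log2 fold changes was 0.12, beside 0.45 over all protein-coding genes of that level. The median half-width of the 95% intervals was 0.26, and for all members but *Rps10* and *Rpl24* the whole interval lay between -1 and 1. A p that misses the threshold does not show that a gene did not change.

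**Figure D1:**
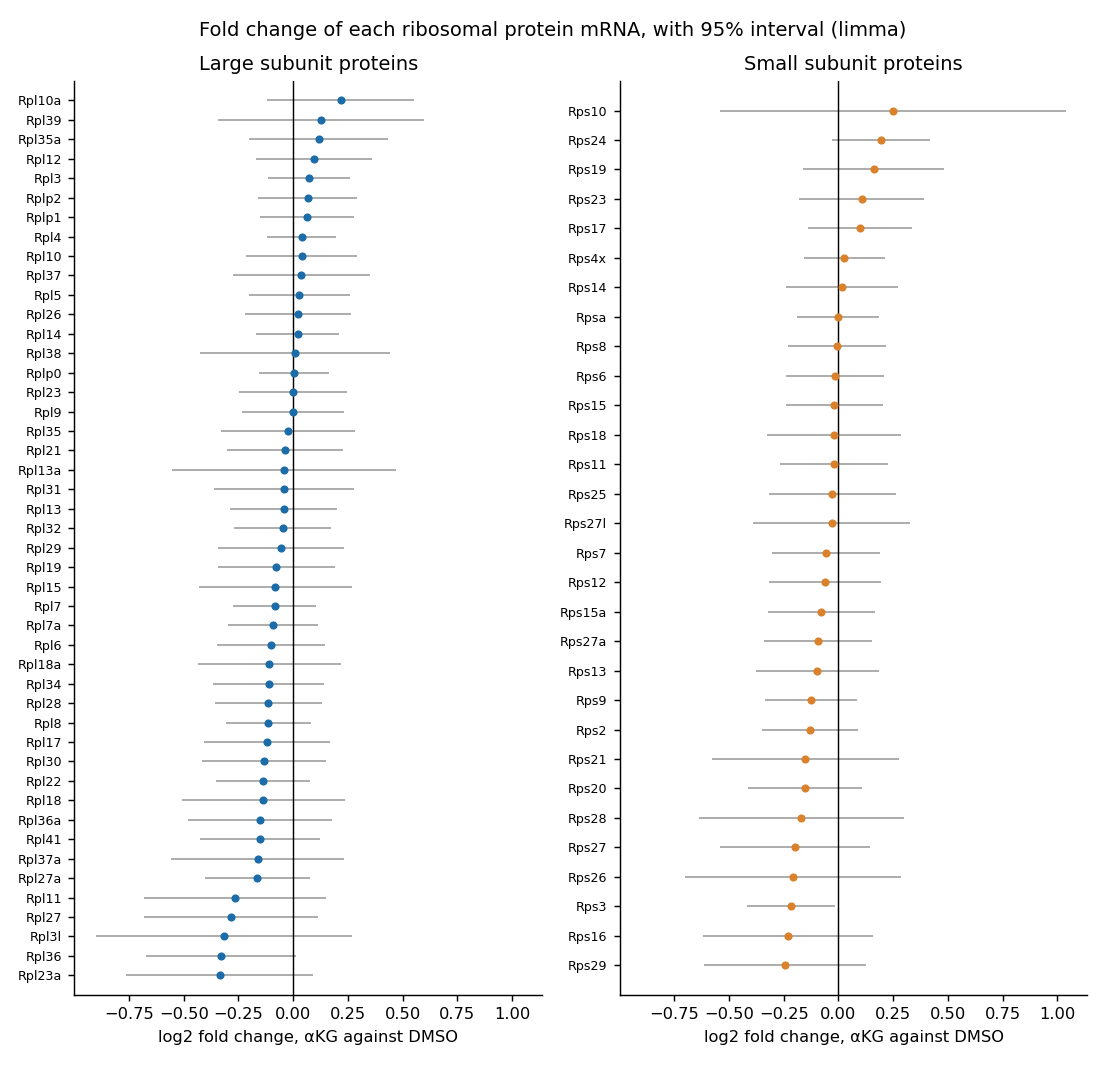
Log2 fold change (αKG against DMSO, x axis) of 76 of the 77 ribosomal protein genes with a mean value of at least 10 (1 is not shown), divided into large and small subunit and sorted, with points for limma estimates from 3 libraries per group and bars for 95% intervals. Among those shown, the interval of *Rps3* alone lies wholly to one side of 0.

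The groups did not overlap in 11 members. Higher in all αKG libraries was 1 member, *Rps24*, against 13.7% of all genes. Lower were 10, or 12.8%, against 14.6% of all genes: *Rpl7*, *Rpl8*, *Rpl23a*, *Rpl27*, *Rpl27a*, *Rpl36*, *Rpl41*, *Rps2*, *Rps3* and *Rps13*. The share that was lower was close to that of all genes, and the share that was higher was below it.

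The member with the highest mean was *Rpl4*, a protein that lines the exit tunnel of the large subunit. It had normalised read counts of 704, 701 and 691 in DMSO and 690, 771 and 694 in αKG. The groups overlapped, with 1 αKG library above all others, and the log2 fold change was 0.04 (95% interval -0.12 to 0.20, limma adjusted p = 0.748). *Rplp0*, the base of the P stalk that recruits translation factors and a common reference gene, had 497, 478 and 488 in DMSO and 472, 499 and 497 in αKG. Its difference was 0.00 on the log2 scale, with a 95% interval of -0.16 to 0.16. The other stalk proteins, *Rplp1* at 0.06 and *Rplp2* at 0.07, had intervals that included 0. *Rpl3*, at the peptidyl transferase centre, gave 335, 300 and 322 in DMSO and 335, 336 and 335 in αKG, for a log2 fold change of 0.07 (95% interval -0.11 to 0.26).

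*Rpl8*, which also lies near the peptidyl transferase centre, was 373, 372 and 366 in DMSO and 312, 357 and 360 in αKG. All 3 αKG libraries were below the DMSO libraries, by a small margin in 2 of them, and the log2 fold change was -0.11 (95% interval -0.31 to 0.08, limma adjusted p = 0.415). *Rpl7* was 322, 300 and 300 in DMSO and 281, 293 and 295 in αKG, also without overlap (log2 fold change -0.08, limma adjusted p = 0.533).

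*Rps3*, a small subunit protein at the mRNA entry channel that also has a role in DNA repair (ENSMUSG00000030744, GRCm38 chromosome 7, 99477896 to 99483738), had the smallest p of the set. Its values were 301, 291 and 308 in DMSO and 244, 258 and 273 in αKG. Each αKG library was below each DMSO library. The log2 fold change was -0.22 ± 0.09 (SE), with a 95% interval of -0.42 to -0.02 and a limma adjusted p of 0.152, so the gene was not called. Without αKG replicate 3 the adjusted p was 0.0199, and *Rps3* was then the only member called of 78, in a fit that called 37.2% of all genes. None of its 75-base windows occurred in another annotated transcript.

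*Rps24*, a small subunit protein mutated in some cases of Diamond-Blackfan anaemia, had 225, 234 and 221 in DMSO and 241, 286 and 254 in αKG, and it was the member whose αKG libraries all lay above DMSO. The log2 fold change was 0.20 ± 0.10 (95% interval -0.03 to 0.42, limma adjusted p = 0.228). Among members with a mean of at least 100, *Rpl10a*, the protein of the L1 stalk, had the highest log2 fold change. It was 108, 87 and 100 in DMSO and 113, 130 and 101 in αKG, with overlap (0.22, 95% interval -0.12 to 0.55, limma adjusted p = 0.358). *Rps19*, the gene most often mutated in Diamond-Blackfan anaemia, was 100, 108 and 113 in DMSO and 135, 124 and 102 in αKG, so that αKG replicate 3 lay within the DMSO range (0.16, 95% interval -0.16 to 0.48). *Rps23* of the decoding centre had a log2 fold change of 0.11.

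At the other end, *Rpl27a* was 187, 172 and 168 in DMSO and 158, 150 and 162 in αKG, without overlap (log2 fold change -0.16, 95% interval -0.40 to 0.08). *Rpl41*, the smallest ribosomal protein, was 155, 150 and 157 in DMSO and 121, 148 and 148 in αKG (-0.15, 95% interval -0.43 to 0.12). In *Rps20* and *Rpl18* the groups overlapped, with log2 fold changes of -0.15 and -0.14. Less abundant, *Rpl36* had 95, 94 and 94 in DMSO and 64, 84 and 78 in αKG. Its DMSO libraries were within 1 of each other and its αKG libraries all lower (-0.33, 95% interval -0.67 to 0.01, limma adjusted p = 0.191).

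Among members with roles outside the ribosome, *Rpl5* and *Rpl11* bind 5S rRNA and, when assembly stalls, the p53 regulator MDM2. *Rpl5* was 248, 225 and 212 in DMSO and 219, 246 and 233 in αKG, a log2 fold change of 0.03 (95% interval -0.20 to 0.26). *Rpl11* was 61, 90 and 83 in DMSO and 58, 68 and 66 in αKG (-0.27, 95% interval -0.68 to 0.15). The groups of both overlapped. *Rps6*, the target of the S6 kinases downstream of mTORC1, was 188, 183 and 202 in DMSO and 187, 195 and 184 in αKG, a log2 fold change of -0.02 (95% interval -0.24 to 0.21). *Rps27a*, made as a fusion with ubiquitin, had a log2 fold change of -0.09, *Rpl26*, known for binding the p53 mRNA, 0.02, *Rps14*, a gene lost in a myelodysplastic syndrome, 0.02, *Rpl38*, known for Hox mRNA translation, 0.01, and *Rpsa*, also the laminin receptor, 0.00. None of these 5 passed at an unadjusted p under 0.05.

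**Figure D2:**
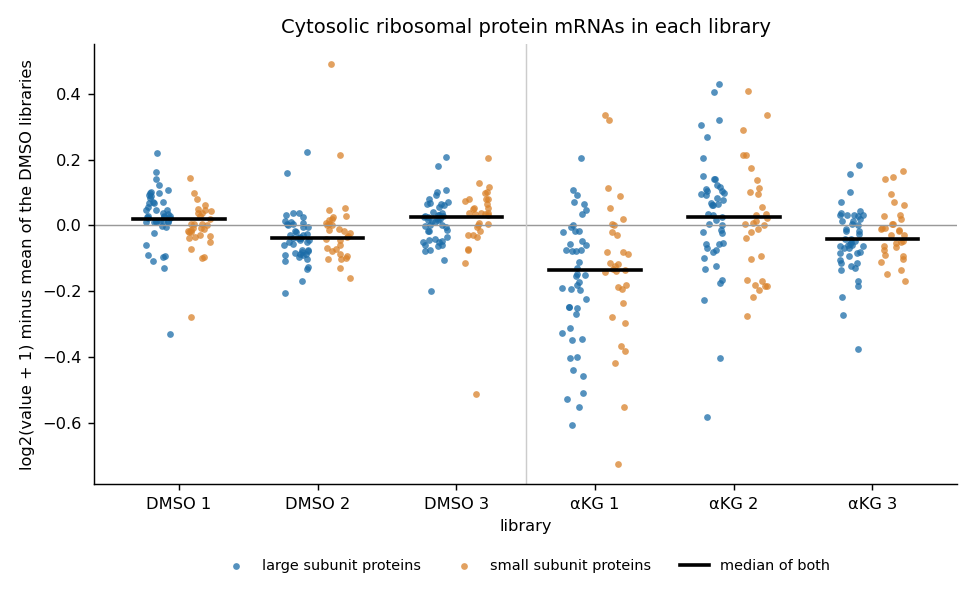
Difference of each of the 77 ribosomal protein genes with a mean of at least 10 from its mean over the DMSO libraries, as log2(value + 1) (y axis), in each of the 6 libraries (x axis), with large subunit proteins in blue, small subunit proteins in orange and the median as a black bar. The medians of αKG replicates 1 to 3 are -0.14, 0.03 and -0.04.

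The αKG libraries differed among themselves in these genes. The median difference of the 78 members from the DMSO mean was -0.14 in αKG replicate 1, 0.03 in replicate 2 and -0.04 in replicate 3. αKG replicate 1 was the lowest of the 6 libraries for 48 members and lay below the DMSO mean for 62, whereas αKG replicate 2 was the highest library for 27 members and lay above the DMSO mean for 48. αKG replicate 3 lay below the DMSO mean for 50 members and above it for 28. Without αKG replicate 1 the members' median log2 fold change was 0.00, with 39 above and 39 below 0, and without αKG replicate 2 it was -0.10.

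Summed over the set, the members held 0.321, 0.307 and 0.319% of all values in DMSO and 0.284, 0.316 and 0.308% in αKG. Only αKG replicate 1 fell outside the DMSO range. The means were 0.316 ± 0.008% and 0.303 ± 0.017% (SD, n = 3 each), which an exact two-sided permutation test over the 6 libraries did not separate (p = 0.3, where 0.1 is the smallest this design can give). The log2 ratio of large to small subunit values was 0.73 ± 0.03 in DMSO and 0.73 ± 0.03 in αKG (exact permutation p = 0.7).

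Short mRNAs as a class were lower in αKG replicates 1 and 2. The members' mRNAs, taken from the GENCODE M21 annotation, were 271 to 3706 bases long with a median of 705, beside 2952 for all listed protein-coding genes. Among other protein-coding genes with an mRNA under 700 bases and a mean of at least 10 (245 genes), the median difference from DMSO was -0.36, -0.18 and -0.05 in αKG replicates 1 to 3. The 38 members of that length had -0.16, 0.02 and -0.05. In the class of 700 to 1500 bases, 1507 other genes had -0.27, -0.17 and -0.06 and 33 members -0.13, 0.03 and -0.04. In αKG replicates 1 and 2 the members' medians were thus above those of other mRNAs of their length, and in replicate 3 they were close to them. When trends with GC content and length were removed from each library, the members' median log2 fold change was 0.08, with 58 of 78 above 0 and none called, so its sign depends on that correction. The part of mRNA length in the members' values was not tested beyond this correction.

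**Figure D3:**
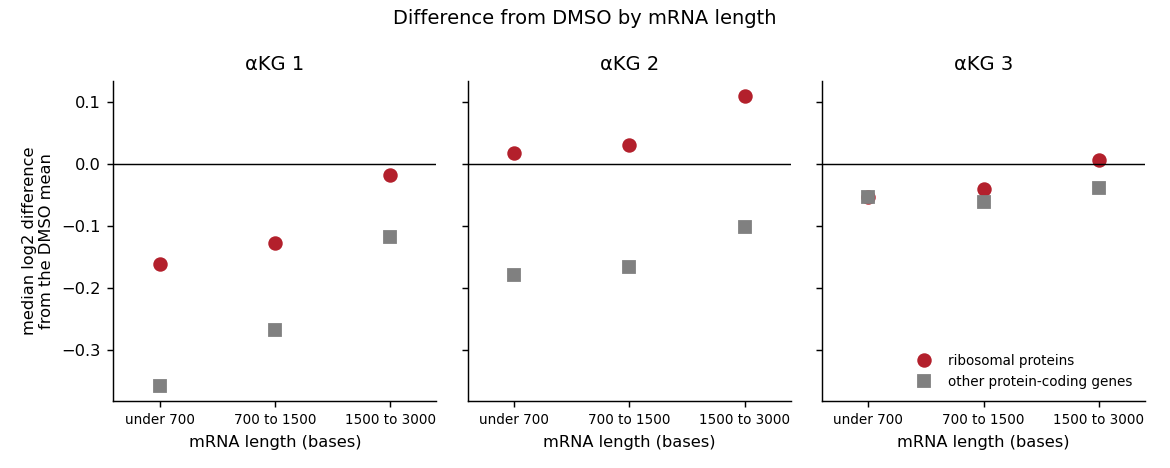
Median log2 difference from the DMSO mean (y axis) by mRNA length class (x axis) in αKG replicates 1 to 3, for ribosomal proteins (red circles; 38, 33 and 5 genes from left to right) and other protein-coding genes (grey squares; 245, 1507 and 3958 genes), all with a mean of at least 10. In replicates 1 and 2 the circles lie above the squares, and in replicate 3 both lie close to 0.

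The members also differed little beside genes of the same level. Levels were compared per length, as estimated reads per kb of mRNA in DMSO. The members had a median of 212 reads per kb and a range, at a mean of at least 10, from 26.3 for *Rps10* to 667 for *Rpl22*, where other protein-coding genes had a median of 72.8. Between 200 and 400 reads per kb, the SD of the log2 fold changes was 0.09 over 36 members and 0.22 over 1370 other genes, and the share at an unadjusted p under 0.05 was 0 and 38.0%. Between 100 and 200 reads per kb, the SD was 0.13 over 27 members and 0.26 over 2820 other genes. The standard errors of the members were not smaller. Their median was 0.11 for members and 0.08 for others in the former class, and 0.14 and 0.10 in the latter. The members' mRNAs are shorter, with a median of 705 bases beside 2952 for all protein-coding genes. At the same reads per kb they thus held fewer reads, so the shares at an unadjusted p do not compare equal numbers of reads.

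**Figure D4:**
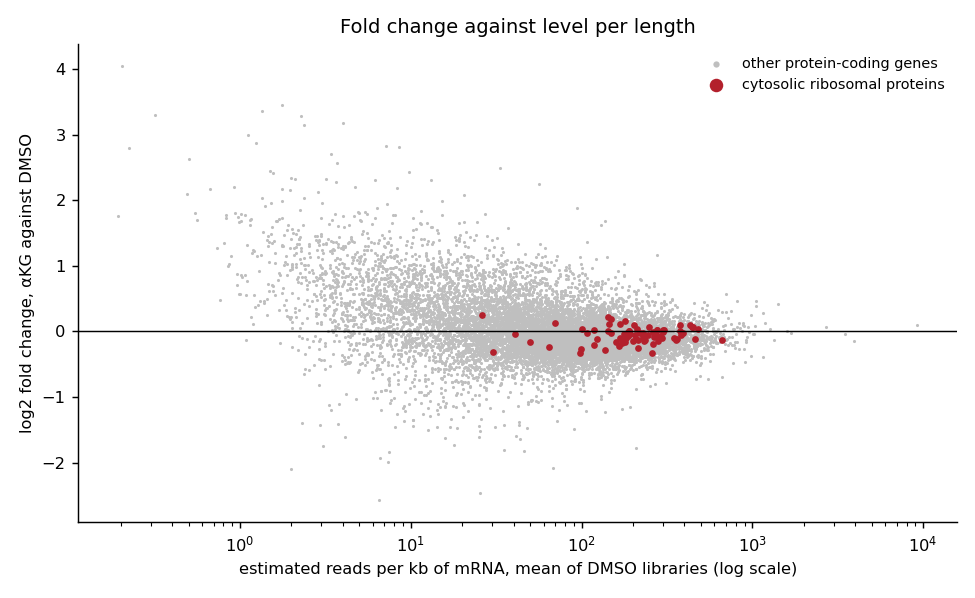
Log2 fold change (αKG against DMSO, y axis) against estimated reads per kb of mRNA in DMSO (x axis, log scale) for 77 ribosomal protein genes (red) and the other protein-coding genes with a mean of at least 10 (grey). The red points form a band around 0 that is narrower than the grey cloud at the same level.

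Features of the counting bear on these levels. Between DMSO libraries the members varied less than counting error allows, with a chi-square of 0.545 to 0.587 per gene over 77 members, where independent reads give about 1. Over all genes with a mean of at least 10 it was 1.02 to 1.90. Between αKG replicates 1 and 2 it was 1.53 for members and 1.53 for all genes, and between αKG replicates 1 and 3 it was 1.32 for members and 10.7 for all genes. No member had more than 667 reads per kb, and only 17 of 11883 protein-coding genes (0.143%) had more than 1000, or 1 read per base, with cardiac actin *Actc1* at 938 and cardiac troponin T *Tnnt2* at 2692. The submitters' processing notes name Picard, a program that can mark duplicate reads, without saying what it was used for. Whether duplicates were removed before counting, and the part of that step in these values, was not tested.

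The methods, written for adult cardiomyocytes, leave out reads that match several genes, and ribosomal protein mRNAs have near-identical copies. The share of an mRNA's 75-base windows, 1 read long, that also occur in another annotated transcript had a median of 50.1% over the 78 members. It was 0 for 3 members, among them *Rps3* and *Rpl3l*, and 98.5% for *Rps27*, and 74 members shared windows with at least 1 pseudogene, with a median of 5 and up to 64. Members with under and over 50% of their windows shared, 39 each, had median log2 fold changes of -0.04 and -0.06. Across the 78 members, the level per kb had a Spearman correlation of -0.11 with the shared share and the log2 fold change one of 0.03, given as descriptions. The values of *Rps27*, *Rpl5* (92.5% shared), *Rpl10* (91.9%) and *Rps10* (90.1%), which shared the most, are uncertain, as reads of near-identical copies could not be told apart. Of the pseudogenes named after members, 44 were listed, of which none was called. At an unadjusted p under 0.05, 3 were higher (6.82%, against 28.1% of all genes in either direction). The 44 summed to only 104 to 141 per library, so their values were near the floor.

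Paralogues that can replace or resemble a ribosomal protein were set beside their parents. *Rpl3l*, the striated-muscle form of *Rpl3* (ENSMUSG00000002500, GRCm38 chromosome 17, 24727820 to 24736143), was 46, 34 and 39 in DMSO and 27, 26 and 44 in αKG. αKG replicates 1 and 2 were below and replicate 3 was within the DMSO range, so the groups overlapped (log2 fold change -0.32 ± 0.26, 95% interval -0.90 to 0.27, limma adjusted p = 0.447). Per length, *Rpl3l* stood at 13.5, 11.1 and 11.9% of *Rpl3* in DMSO and at 7.92, 7.60 and 12.9% in αKG. The log2 ratio was -3.04 ± 0.14 in DMSO and -3.44 ± 0.42 in αKG (SD, n = 3 each), a difference of -0.40 with an exact two-sided permutation p of 0.3, and -0.65 without αKG replicate 3. In *Rpl3*, 83.2% of the windows are shared with other transcripts, while none of *Rpl3l* is, and the effect of this on the percentages was not tested.

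*Rps4l*, a copy of *Rps4x* that the table lists as a transcribed pseudogene and that is no member (ENSMUSG00000063171, GRCm38 chromosome 6, 148354656 to 148355598), was 64, 62 and 60 in DMSO and 27, 40 and 45 in αKG. All αKG libraries were below DMSO, with a log2 fold change of -0.75 ± 0.22 (95% interval -1.24 to -0.25) and a limma adjusted p of 0.0811, or 0.0136 without αKG replicate 3. *Rps4x* itself was 278, 275 and 278 in DMSO and 281, 288 and 278 in αKG (0.03, 95% interval -0.16 to 0.21). *Rpl7l1*, a homologue of *Rpl7* that acts in ribosome assembly (ENSMUSG00000063888, GRCm38 chromosome 17, 46773907 to 46782672), was 418, 432 and 441 in DMSO and 327, 335 and 368 in αKG. It was lower in 3 of 3 αKG libraries, with a log2 fold change of -0.33 ± 0.08 (95% interval -0.51 to -0.14, limma adjusted p = 0.0571), just outside the threshold, and was called without αKG replicate 3 (adjusted p = 0.00327).

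*Rps27l*, a stress-induced homologue of *Rps27*, was 70, 65 and 75 in DMSO and 66, 77 and 63 in αKG, a log2 fold change of -0.03 (95% interval -0.39 to 0.33). *Rpl22l1*, the homologue of *Rpl22*, was 37, 40 and 28 in DMSO and 40, 43 and 46 in αKG (0.30, 95% interval -0.18 to 0.79), while *Rpl22* was 317, 291 and 290 in DMSO and 251, 273 and 294 in αKG (-0.14, 95% interval -0.35 to 0.08). Whether a paralogue's change differs from its parent's was tested only for *Rpl3l*.

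**Figure D5:**
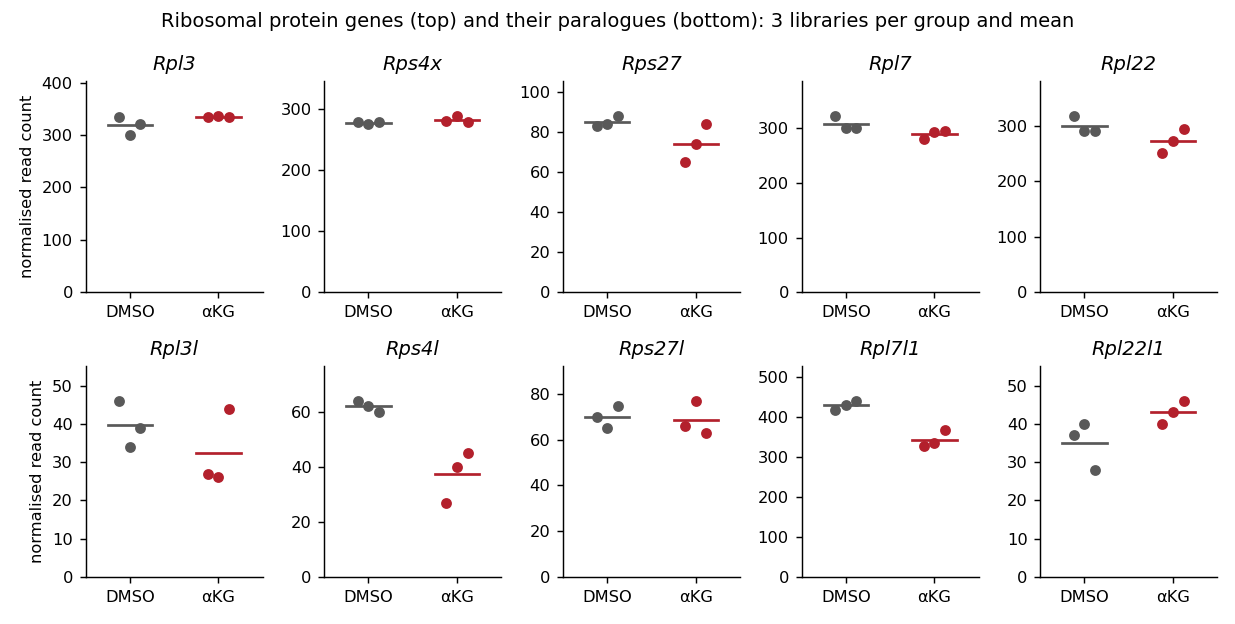
Normalised read counts (y axes, each from 0) of 5 ribosomal protein genes (top) and their paralogues (bottom) in the 3 DMSO libraries (grey) and 3 αKG libraries (red), with the group mean as a line. *Rps4l* and *Rpl7l1* show no overlap between groups, whereas *Rpl3l* overlaps through 1 αKG library at 44.

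Further components of the ribosome gave no call either. *Rack1*, a scaffold on the small subunit head, was 485, 484 and 499 in DMSO and 499, 528 and 477 in αKG, a log2 fold change of 0.03 (95% interval -0.13 to 0.20). *Rps3a1* was at -0.04 and *Fau*, which encodes a ubiquitin-like fusion of eS30, at -0.06, both with intervals across 0. The low-valued *Rpl36al*, at 2 to 7, and *Rps27rt*, at 1 to 5, were too low to compare.

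Genes that build, modify or regulate ribosomes were described by 7 lists, of which 5 had a median below 0 and 2, the snoRNP cores and the snoRNA hosts, above. Of 221 pathway genes, 1 was called (0.45%, against 3.78% of all genes), *Utp4*, a subunit of the early small subunit processome, which fell from 219, 221 and 206 to 136, 134 and 175. Its log2 fold change was -0.54 ± 0.13 (limma adjusted p = 0.0489), and it lost its call under 11 of the alternatives, among them each DMSO library left out and αKG replicate 1 or 2 left out. At an unadjusted p under 0.05 there were 40 lower and 8 higher pathway genes, together 21.7%, against 28.1% of all genes. The lower ones were 18.1%, against 19.5% of the protein-coding genes whose mean reached 10. Of the latter, 57.7% had a log2 fold change below 0, with a median of -0.06. In the list of small subunit assembly factors, 36 of 40 had log2 fold changes below 0, with a median of -0.19 and 13 lower and 1 higher at an unadjusted p under 0.05. Of the large subunit assembly factors, 46 of 56 were below 0, with a median of -0.13, 11 lower and 1 higher by the same measure. The RNA polymerase I list, whose enzyme transcribes rRNA, had 14 of 15 below 0 and a median of -0.13, with 3 lower and 1 higher.

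With GC and length trends removed, these 3 medians were -0.16, -0.11 and -0.13, in contrast to the members' median, which changed sign. Without αKG replicate 3, 84 of the 221 pathway genes were called, in the fit that called 37.2% of all genes, and 17 small subunit and 22 large subunit assembly factors were among those lower. The snoRNP core proteins, which act in rRNA modification, had a median of 0.03 and translation factors one of -0.04, with none called in either list. The snoRNA host genes, most of which are TOP mRNAs themselves, had a median of 0.16, with 20 of 24 above 0, none called and 2 higher at an unadjusted p under 0.05. Nuclear-retained RNAs moved with αKG replicates 1 and 2, as the 7 on that list summed to 14288, 13925 and 6587 in αKG replicates 1 to 3 and to 6521 to 6778 in DMSO, and their part in the values of host genes was not tested.

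The regulators of ribosomal protein synthesis were mixed. *Mtor*, the kinase of mTORC1, was 1376, 1352 and 1336 in DMSO and 1158, 1062 and 1292 in αKG, lower in 3 of 3 libraries (log2 fold change -0.21, limma adjusted p = 0.111). *Myc*, a transcription factor that drives ribosome production, was 41, 57 and 58 in DMSO and 92, 112 and 60 in αKG, higher in 3 of 3 libraries though by little in replicate 3 (0.72, 95% interval 0.17 to 1.27, limma adjusted p = 0.107). Both were called without αKG replicate 3 (adjusted p = 0.00549 and 0.0104). *Larp1*, the TOP-binding repressor, was 1274, 1305 and 1249 in DMSO and 1234, 1282 and 1268 in αKG, with overlap (-0.02, 95% interval -0.14 to 0.11). *Eif4ebp1*, the eIF4E-binding protein that mTORC1 phosphorylates, was at 0.04 (95% interval -0.21 to 0.29). Over the 36 genes of the mTORC1 and TOP list the median was -0.16, with none called. At an unadjusted p under 0.05, 9 were lower and 2 higher, together 30.6%. That share was close to the 28.1% of all genes and the 34.6% of protein-coding genes whose mean reached 10.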

How the data were processed

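Total RNA of 6 cardiomyocyte libraries was sequenced with 75-base single-end reads. According to the methods, the authors counted trimmed reads that aligned to GRCm38 and touched an exon of a gene, and excluded reads of several genes or places. The methods describe this for RNA of isolated adult cardiomyocytes and do not say whether the same rules held for these neonatal libraries. The submitters' processing notes name Trimmomatic 0.39, STAR 2.7.10a, Picard 2.27.1, featureCounts 2.0.3 and DESeq2 1.30.1. The deposited values are called a score here: the authors had scaled each library by a factor and rounded to whole numbers, so they are not raw counts, and neither DESeq2 nor edgeR was run on them here. The normalised read count in the text is this value.

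The value of 1 read in each library was estimated from the spacing of low values, 0.9259 to 1.1189. The estimate was tested on simulated data, where 11 of 12 factors were recovered within 0.1%. Reads are not independent molecules, so these figures cover counting error only. Treatment was the single term of a model of all 6 libraries (limma 3.58.1 in R 4.3.3, variance trend allowed) on log2(value + 1), over all 20066 genes, with Benjamini-Hochberg adjustment. The pseudocount understates changes of low genes. In simulated data over 20066 genes, 186 of 200 changed genes were called, all with the right sign, with 1 unchanged gene called. The share called at differences as small as those of the members was not tested. Nor was the share called at the spread seen here between αKG replicate 3 and the other αKG libraries. Single values per library were compared with exact permutation tests. Transcript lengths, GC content and 75-base windows came from GENCODE M21, 1 principal transcript per gene, and start sites from RefSeq. No genome sequence was used here, so windows were compared with annotated transcripts only. Strand was not stated for the counting, so overlapping genes are uncertain.

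Members, lists and tests were chosen with earlier results of these data known. Named genes are those called, the 5 highest in mean, the 5 largest rises and falls at a mean of at least 100, genes in lists of paralogues and their parents, roles and further ribosome components, called genes of the pathway lists, and *Myc*, *Larp1*, *Mtor* and *Eif4ebp1*. *Rpl36*, the bounds of ranges and the genes without overlap were chosen by their values. The alternatives changed the filter, pseudocount, scaling, variance model, GC and length correction and replicate block, or left out each library. Single values of some genes are not reported here.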

Additional observations from a re-analysis of the deposited data

How the results depend on the processing

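No ribosomal protein gene was called under the filter, pseudocount, scaling, variance, voom, GC and block settings. The same held with any library but αKG replicate 3 left out. Several of these fits called few of all genes: 27 without the variance trend and 46 with the replicate block. Without DMSO replicate 2 or 3 they called 3 and 4, and without αKG replicate 1 or 2 they called 0. In such fits, 0 members called says little about the members. With single libraries left out, 0 to 1 members were called, 0 to 7466 of all genes and 0 to 84 pathway genes, the members' median log2 fold change ran from -0.10 to 0.00, their share of values changed by -0.0195 to -0.0036 percentage points, and the log2 ratio of *Rpl3l* to *Rpl3* by -0.65 to -0.26. At an unadjusted p under 0.05 there were 1 member, 48 pathway genes and 5648 of all genes in the main fit. Under the alternatives the unadjusted member count ran from 0 with the replicate block to 9 without αKG replicate 3. It was 7 with the GC and length correction. The count of all genes called was 346 with a pseudocount of 0.1, 27 without the variance trend, 357 with limma-voom on estimated reads and 10 with DMSO replicates 2 and 3 averaged. For the pathway genes, 2 were called with a filter at a mean of 10, 2 with libraries scaled to the same total, 2 with quantile normalization and 5 with the GC and length correction. None was called with the pseudocount of 0.1, without the variance trend, with voom or with the averaged DMSO libraries.

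The groups share replicate numbers, but the labels tie no number to a shared culture, and the deviations of same-numbered libraries correlated at -0.074, 0.136 and 0.002. The replicate block called 46 of all genes, 0 members and 0 pathway genes. Combined with the GC and length correction it called 1139 of all genes, 0 members and 6 pathway genes. The members' median was 0.0818 with the GC and length correction, with or without the replicate block.

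Among 47 single genes under 16 alternatives, 668 of 749 values kept their direction and side of the threshold, 62 changed sign, 11 lost and 8 gained a call. After removal of GC and length trends, with or without the block, *Fau* was at 0.12, *Rpl18* at 0.049, *Rpl41* at 0.025, *Rpl8* at 0.066, *Rps27a* at 0.029, *Rps27l* at 0.068, *Rps3a1* at 0.069, *Rps6* at 0.12 and *Rpsa* at 0.12. Scaled to the same total, *Rpl26* was at -0.0023, *Rpl38* at -0.017, *Rplp0* at -0.020 and *Rps14* at -0.0080. With quantile normalization, *Rpl36al* was at -0.23, *Rpl38* at -0.12, *Rpl39* at -0.076, *Rps6* at 0.012 and *Rpsa* at 0.045. With voom, *Rpl38* was at -0.0009. With averaged DMSO libraries, *Rpl5* was at -0.0020, *Rplp0* at -0.0022 and *Rpsa* at 0.011. With single libraries left out, the ranges were -0.045 to 0.096 for *Eif4ebp1*, -0.0042 to 0.069 for *Rack1*, -0.013 to 0.088 for *Rpl10*, -0.26 to 0.024 for *Rpl18*, -0.88 to 0.28 for *Rpl24*, -0.041 to 0.064 for *Rpl26*, -0.24 to 0.47 for *Rpl36al*, -0.14 to 0.11 for *Rpl38*, -0.023 to 0.24 for *Rpl39*, -0.014 to 0.066 for *Rpl4*, -0.023 to 0.089 for *Rpl5*, -0.0097 to 0.030 for *Rplp0*, -0.033 to 0.083 for *Rps14*, -0.11 to 0.028 for *Rps27l*, -0.081 to 0.015 for *Rps3a1*, -0.047 to 0.024 for *Rps6* and -0.027 to 0.014 for *Rpsa*. The cause of these changes was not tested. Of the members, 39 with under 50% of their windows shared, a choice made after seeing the data, kept a median of -0.04. Over the 77 members with a mean of at least 10, the limma SE of the log2 fold change had a median of 0.116, beside 0.094 for counting error, and shifts within the 95% intervals could not be told from 0.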
